A study of Mus musculus with 12 samples.

Results

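The genes described are the Hoxb cluster genes Hoxb1 to Hoxb9, 9 neighbouring homeobox genes on mouse chromosome 11, the chromosome that also carries Msi2. A probe set, the group of short probes that together report 1 transcript on the array, was taken as a member where the annotation gave it a single gene symbol and that symbol was one of the 9. This rule found 10 probe sets for 8 of the 9 genes, among 34945 probe sets with 1 symbol for 18193 genes. Hoxb8 had no probe set of its own. The members were chosen by name and not by their values here.

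RNA was measured on 12 Affymetrix arrays, 1 per sample, in 4 groups of 3 biological replicates. Blood stem and progenitor cells of donor mice were infected with oncogenes and transplanted, and leukaemic stem cells were sorted once disease had developed. De novo acute myelogenous leukaemia (AML) carried MLL-AF9 and was sorted as Lin-Sca1-ckit+ cells, whereas blast crisis chronic myelogenous leukaemia (bcCML) carried BCR-ABL with NUP98-HOXA9 and was sorted as Lin- cells. In each leukaemia 3 samples came from wild-type donors and 3 from Msi2 Gt/Gt donors, in which a gene trap disrupts both copies of Msi2, the gene of the RNA-binding protein Musashi2. All samples carry the strain label B6;CB-Msi2Gt(pU-21T)2Imeg, none was treated, and animal ages and hosts are not given in the sources used here. Both leukaemias were started by oncogenes put into the cells, so every group, wild-type included, carries at least 1 such fusion gene. The oncogene and the sort both differ between AML and bcCML and cannot be told apart.

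Hox genes encode transcription factors that bind DNA through a homeodomain and set position along the body axis in the embryo. Within a cluster the genes lie in the order in which they are used along that axis, from the anterior genes (Hoxb1, Hoxb2, Hoxb3) through the central ones (Hoxb4 to Hoxb8) to the posterior Hoxb9. In blood, stem and progenitor cells express several of them and shut them off as they mature. HOXB4 is known for expanding blood stem cells when overexpressed, and Hoxb5 has been used as a marker of long-term stem cells in mice. Both MLL fusions and NUP98-HOXA9 are known to act through Hox genes and their Meis and Pbx partner proteins.

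Promoter sequence was taken from RefSeq (build GRCm38.p6), which held an entry for 3 of the 9 genes. The 250 bases before the transcription start are shown for Hoxb4, the member called in the Msi2 comparison in AML, and for Hoxb1, a member below the detection filter on every array. The remaining entry was Hoxb8, which had no probe set. Capitals mark matches on either strand to TAAT (the core that homeodomains bind), CCAAT (NF-Y) and TGATNNAT (Pbx with a Hox partner).

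Hoxb4 (chr11:96318017-96318266, plus strand): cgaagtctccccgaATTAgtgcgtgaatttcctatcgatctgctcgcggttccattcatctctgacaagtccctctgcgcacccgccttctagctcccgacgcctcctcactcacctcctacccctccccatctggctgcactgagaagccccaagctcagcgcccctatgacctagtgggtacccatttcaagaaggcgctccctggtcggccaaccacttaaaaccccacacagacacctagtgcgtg
Hoxb1 (chr11:96365508-96365757, plus strand): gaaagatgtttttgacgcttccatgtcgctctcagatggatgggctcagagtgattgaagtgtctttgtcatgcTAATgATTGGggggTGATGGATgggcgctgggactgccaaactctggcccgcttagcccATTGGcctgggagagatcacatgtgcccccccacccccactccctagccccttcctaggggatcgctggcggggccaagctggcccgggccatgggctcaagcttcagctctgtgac

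The Hoxb4 window held 1 TAAT match, 236 bases before the start, and no match to CCAAT, TGATNNAT or the E-box CACGTG. The Hoxb1 window held 1 TAAT, 2 CCAAT and 1 TGATNNAT match and no CACGTG. Of 32851 promoter windows of the same length, 54.9% held TAAT, 33.8% CCAAT, 7.68% TGATNNAT and 6.02% CACGTG. The matches are letters in a window and not measured binding.

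The values are intensity units on a linear scale, tested as log2 without a pseudocount, and levels of different genes are not compared because each probe set has its own response. A probe set was tested where 3 or more of the 12 arrays had a log2 intensity above 4, which is 16 units. Each gene was represented by its brightest probe set. This left 10817 genes. Group means were fitted with limma over all 12 arrays, with p values adjusted by Benjamini-Hochberg across the genes tested and 0.05 as the threshold for a call. Msi2 itself, the check of the labels, measured 312 ± 125 units in wild-type and 69.6 ± 17.0 in mutant AML, and 3827 ± 1085 in wild-type and 605 ± 117 in mutant bcCML (SD, n = 3 each). Msi2 was lower in mutants in both leukaemias (log2 difference -2.11 ± 0.34 and -2.63 ± 0.34, SE; limma adjusted p = 0.0211 and 0.0200). The stem marker Kit was above the filter on all 12 arrays (AML 169 to 435 units, bcCML 78.2 to 546). In AML, the summed level of 8 granulocyte genes ran from 62956 to 167413 units and that of 7 monocyte and macrophage genes from 7066 to 19682. In bulk RNA such as this, fewer cells of a type and less RNA per cell cannot be told apart.

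The measured members were neighbours in the cluster. Probe sets of Hoxb3, Hoxb4, Hoxb5 and Hoxb6 passed the filter, 6 probe sets in all, and those of Hoxb1, Hoxb2, Hoxb7 and Hoxb9 did not. Hoxb1 and Hoxb2 lie on one side of the 4 tested genes and Hoxb7 and Hoxb9 on the other.

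Hoxb7 was at the floor of the values on every array, with 4.52 units as its highest value, although a probe set that Hoxb7 shares with Hoxb8 was well above the filter in bcCML. Hoxb2, an anterior gene of the hindbrain, reached at most 5.22 units, and the posterior gene Hoxb9 at most 8.22, on bcCML wild-type array 2. Hoxb1, the most anterior member, measured 4.52, 4.50 and 8.47 units in wild-type AML and between 7.24 and 9.45 on the other 9 arrays. All 4 genes therefore stayed below 16 units in every group, and no fold change is given for them. A low value in this array processing is a bound on the signal and does not show that the RNA was absent.

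**Figure D1:**
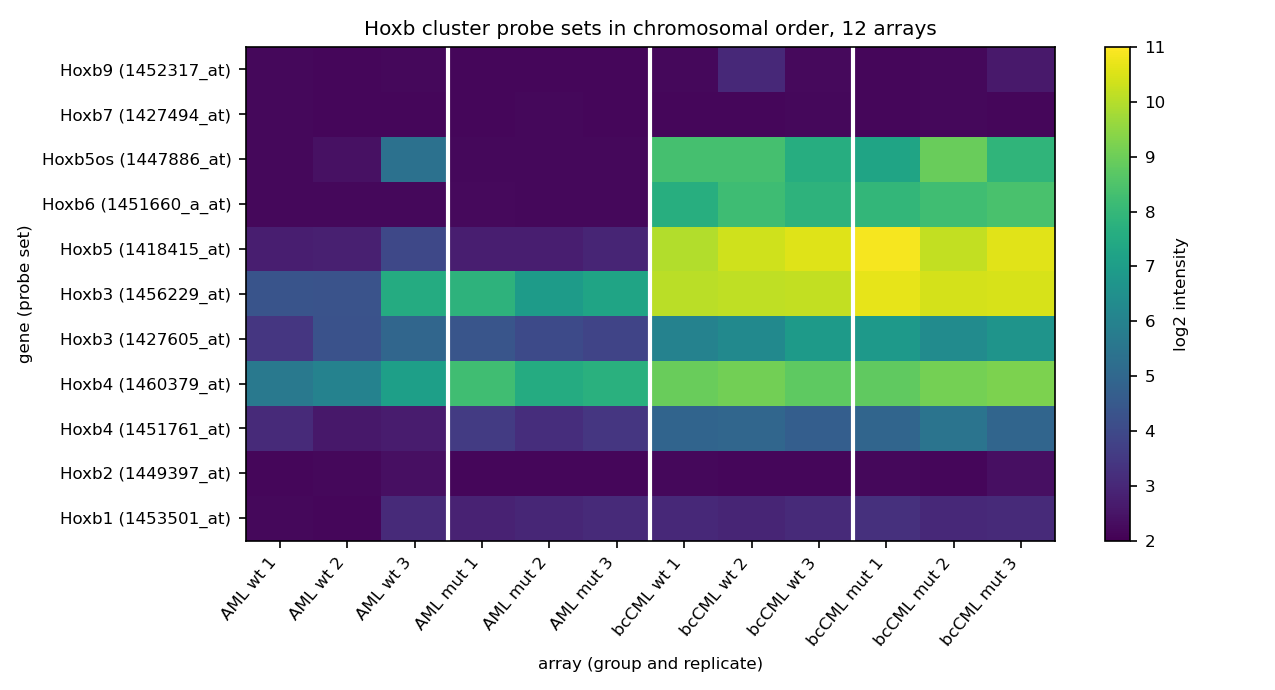
Log2 intensity of 10 Hoxb probe sets and the antisense gene Hoxb5os (rows, in order of gene start along chromosome 11) on 12 arrays (columns, by group). Hoxb5os, Hoxb6 and Hoxb5 are bright in bcCML and dark in AML, apart from a dim signal of Hoxb5os on AML wild-type array 3, while Hoxb3 and Hoxb4 are visible in both leukaemias.

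Between the leukaemias, Hoxb3, Hoxb4, Hoxb5 and Hoxb6 were each higher in bcCML than in AML, and the arrays of the leukaemias did not overlap for any of them in either genotype. Hoxb5 and Hoxb6 went from below the filter to a strong signal, whereas Hoxb3 and Hoxb4 were already measured in AML. Hoxb5 and Hoxb6 passed the filter only through bcCML, so they had to differ, and their calls are given as a description. Hoxb3 and Hoxb4 were above the filter on all 6 AML arrays.

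Hoxb5 measured 6.76, 7 and 15.5 units in wild-type AML and 1004, 1312 and 1494 in wild-type bcCML. In Msi2 mutants it measured 6.75, 6.76 and 7.62 units in AML and 1884, 1161 and 1559 in bcCML. Every AML array lay below the filter level and every bcCML array far above it. Hoxb5 was thus at least 78.3-fold higher in wild-type bcCML than in AML of the same genotype, and at least 94.1-fold higher in mutant bcCML than in mutant AML. These bounds set the mean log2 of bcCML against the filter level.

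Hoxb6, whose enforced expression is known to expand myeloid progenitors, lay at the floor in AML, between 4.55 and 4.73 units on all 6 arrays. In bcCML it measured 200.2, 295 and 228 units in wild-type and 252, 299 and 340 in mutant cells. This put it at least 14.9-fold higher in wild-type and at least 18.4-fold higher in mutant bcCML. The antisense gene Hoxb5os, whose interval in RefSeq contains Hoxb5 and Hoxb6, followed the same order, with 323, 322 and 196 units in wild-type and 152, 494 and 236 in mutant bcCML. It lay between 4.53 and 5.25 units in AML except on wild-type array 3, where it measured 41.3.

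Hoxb3, an anterior gene that drives myeloid proliferation when overexpressed, measured 20.2, 19.5 and 186 units in wild-type AML. In mutant AML it measured 226, 122 and 154 units. In bcCML the values were 1063, 1132 and 1155 units in wild-type and 1642, 1381 and 1395 in mutant cells. All 6 bcCML arrays lay far above every AML array, while wild-type AML was split, with array 3 within the range of the mutants. The difference between the leukaemias was 4.74 ± 0.70 on the log2 scale in wild-type cells (SE; limma adjusted p = 0.000495) and 3.18 ± 0.70 in mutants (limma adjusted p = 0.00429).

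Hoxb4 measured 50.1, 63.8 and 134 units in wild-type AML and 303, 184 and 208 in mutant AML. In bcCML it measured 496, 539 and 438 units in wild-type and 448, 562 and 599 in mutant cells. Its 4 groups formed an order in which wild-type AML was lowest, mutant AML next, and the 2 bcCML groups, which overlapped, highest. The log2 difference between the leukaemias was 2.70 ± 0.33 in wild-type cells (SE; limma adjusted p = 0.000140), a 6.49-fold higher level in bcCML, and 1.23 ± 0.33 in mutants (limma adjusted p = 0.0120), a 2.35-fold higher level.

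**Figure D2:**
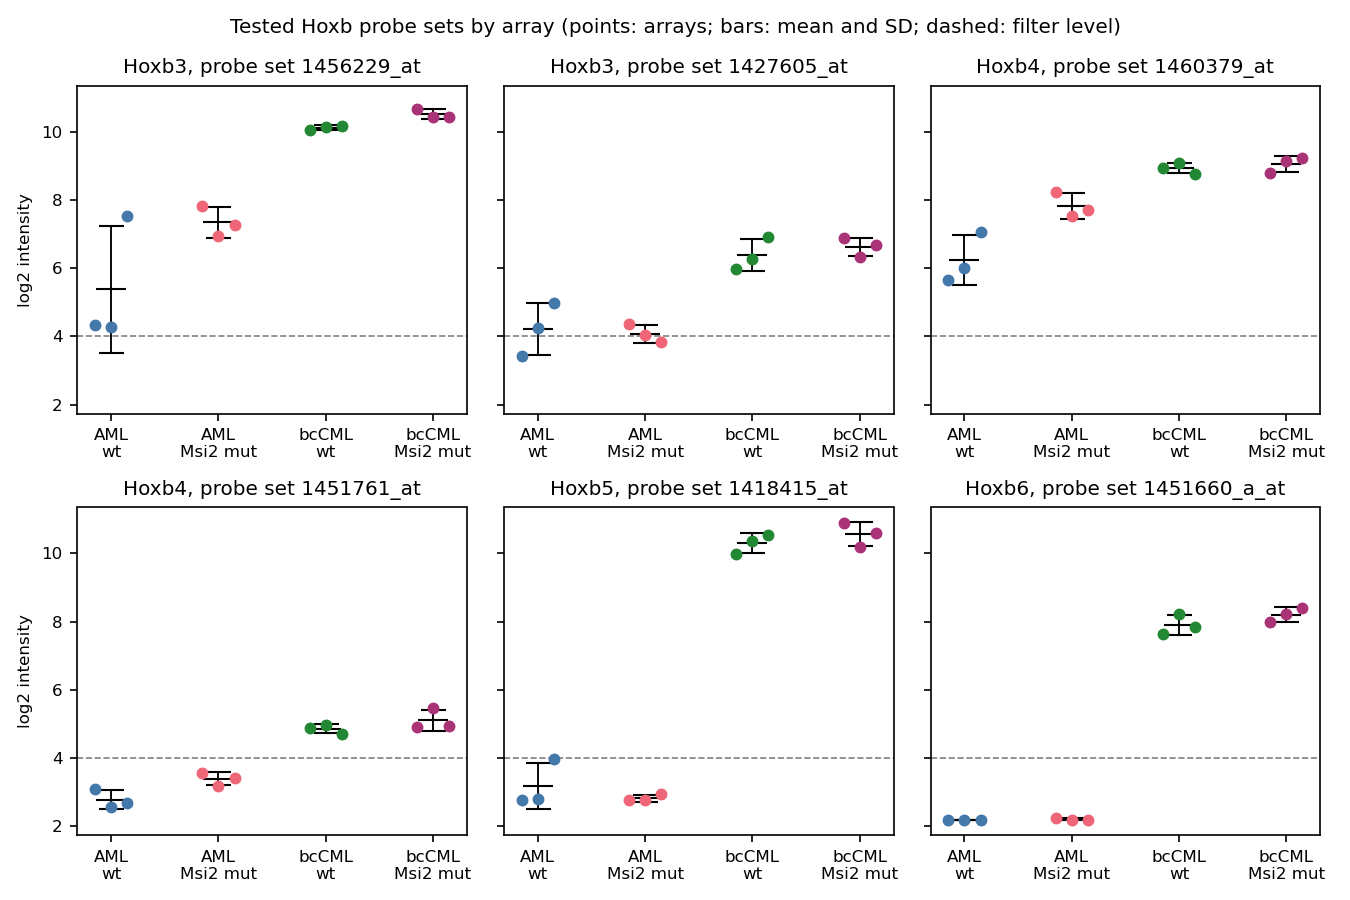
Log2 intensity of the 6 Hoxb probe sets that passed the filter, by group, with 1 point per array, bars for the mean and SD of 3 arrays, and a dashed line at the filter level of 4. The bcCML points lie above the AML points in every panel, and wild-type AML array 3 stands well above the other 2 wild-type AML arrays for the brighter Hoxb3 probe set.

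For scale, 17.7% of all genes tested were called higher in wild-type bcCML than in wild-type AML and 23.2% in mutant bcCML than in mutant AML. The arrays did not overlap, with bcCML higher, for 25.6% of genes in wild-type and 29.0% in mutant cells. Calls were thus common between these leukaemias. The median log2 difference over all genes was 0.0041 in wild-type and 0.033 in mutant cells. The dimmer probe sets were read from the test of every probe set, where 16.3% of probe sets were called higher in wild-type and 20.8% in mutant bcCML. That of Hoxb3 differed by 2.17 ± 0.37 in wild-type and 2.55 ± 0.37 in mutant cells (SE; limma adjusted p = 0.00122 and 0.000313). That of Hoxb4 passed the filter only through bcCML and so had to differ. It was at least 1.81-fold and 2.14-fold higher in wild-type and mutant bcCML.

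Marker genes of other cell types moved with this comparison. Summed over 6 erythroid genes, the AML arrays had 56.2 to 585 units and the bcCML arrays 21126 to 29028. On every AML array 5 of the 6 were below the filter (Gata1, Klf1, Hba-a1, Epor and Car1). Of these, Hba-a1 was below the filter on every bcCML array as well. The 7 monocyte and macrophage genes summed to between 317 and 823 units in bcCML, where Csf1r, Cd14 and Irf8 were below the filter on all arrays. For 6 megakaryocyte genes the sums were 53.0 to 972 units (AML) and 3915 to 11525 (bcCML), and for 8 stem and progenitor genes 980 to 7932 and 20472 to 23322. Their part in the Hoxb differences was not tested. Without AML wild-type array 3 the wild-type difference of Hoxb3 was 5.81 on the log2 scale.

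The Msi2 comparison in AML asks what loss of Musashi2 changes in MLL-AF9 stem cells. Hoxb4 rose in mutant AML, from 82.6 ± 45.0 to 232 ± 63.1 units (SD, n = 3), which is 3.01-fold. The log2 difference was 1.59 ± 0.33 (SE; limma adjusted p = 0.0472), and all 3 mutant arrays lay above all 3 wild-type arrays. It was the 1 Hoxb gene of 4 tested that was called, where 1.52% of all genes were called, 0.379% higher and 1.14% lower. Arrays that did not overlap, with the mutant higher, were more common, at 5.18% of genes.

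The other Hoxb4 probe set measured 8.49, 5.95 and 6.40 units in wild-type and 11.8, 9.09 and 10.7 in mutant AML. The mutant arrays again lay above the wild-type arrays, but all 6 values were below the filter level, so no fold is given. The call of the brighter probe set was lost in 11 of 12 fits without 1 array, all but that without AML wild-type array 3 (log2 difference 1.29 to 1.74, limma adjusted p 0.0644 to 0.162). It was also lost in the limma fit of the 6 AML arrays alone (adjusted p = 0.272), with no filter (0.0983) and with every probe set tested (0.0534).

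Hoxb3 measured 75.2 ± 95.9 units in wild-type and 167 ± 53.2 in mutant AML (SD, n = 3) and did not pass, with a log2 difference of 1.95 ± 0.70 (limma adjusted p = 0.233; 95% interval 0.39 to 3.51). The mutant arrays were all above wild-type arrays 1 and 2, and wild-type array 3 lay between them. Without that array the log2 difference was 3.03 (limma adjusted p = 0.00141). Leaving out the wild-type array nearest to the mutants had to enlarge the difference, so that fit is a description. The 2 Hoxb3 probe sets disagreed here. The dimmer one measured 10.8, 19.1 and 31.5 units in wild-type and 20.5, 16.4 and 14.3 in mutant AML, with overlapping arrays and a log2 difference of -0.15 ± 0.37. In RefSeq the Hoxb3 interval contains the whole of Hoxb4.

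Hoxb5 and Hoxb6 stayed below 16 units on all arrays of both AML genotypes, so no change could be measured. Hoxb5os was listed near the floor on all 3 mutant arrays.

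AML wild-type array 3 stood apart for the brighter Hoxb3 probe set (186 units, against 20.2 and 19.5) and Hoxb5os (41.3, against 4.54 and 5.25). Among the 3 wild-type AML arrays it was also the highest for the dimmer Hoxb3 probe set, the brighter Hoxb4 probe set and Hoxb5 (15.5 units, below the filter). Since 1 of 3 arrays is always the highest, these ranks are a description. The dimmer Hoxb4 probe set was highest on array 1 (8.49 units, against 6.40 on array 3). Hoxb6 measured 4.55 on array 3, and 4.55 and 4.56 on the others. On this array the stem and progenitor genes summed to 7932 units, the most of the 6 AML arrays, and the granulocyte genes to 62956, the least. The erythroid sum was 585 units there against 63.7 and 56.2 on the other wild-type AML arrays, and 71.4, 84.0 and 512 on the mutant arrays. Over the groups, the granulocyte sum ran from 62956 to 115915 units in wild-type and from 135403 to 167413 in mutant AML, the stem and progenitor sum from 2049 to 7932 and from 980 to 3417, and the monocyte and macrophage sum from 13114 to 17275 and from 7066 to 19682. The genotypes did not overlap in AML for that granulocyte sum or for the megakaryocyte sum (53.0 to 170 units in wild-type, 257 to 972 in mutants). They also did not overlap for the sum of 6 T and NK cell genes (1548 to 5157, 5239 to 8057) or that of 5 B cell genes (809 to 1134, 571 to 799). A sum follows its brightest genes. Log2 differences were positive for 7 of 8 tested granulocyte and 4 of 6 megakaryocyte genes. They were positive for 1 of 3 T and NK genes (median -0.64) and 2 of 3 B cell genes (median 0.71), against the direction of these 2 sums. Procr and Slamf1 of the stem list, Itga2b and Ppbp of the megakaryocyte list, Cd3e, Cd3g and Klrd1 of the T and NK list and Pax5 and Ms4a1 of the B cell list were below the filter on every AML array. The part of these cell markers in the Hoxb values was not tested.

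**Figure D3:**
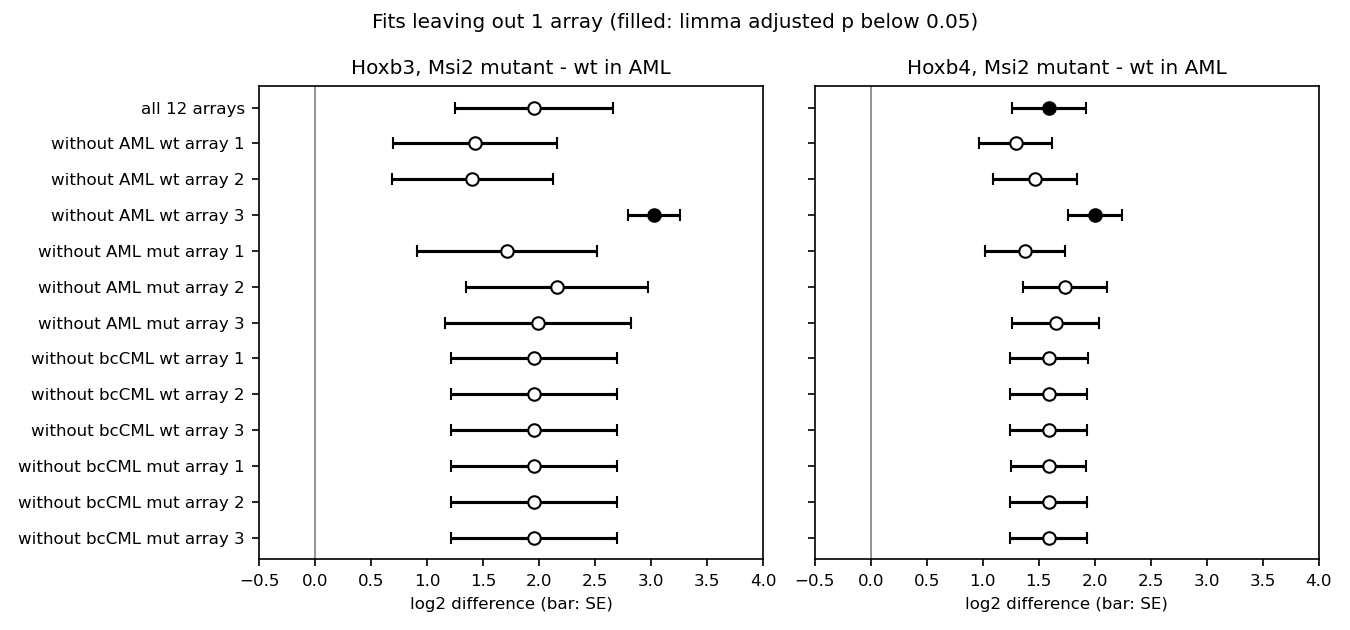
Log2 difference between mutant and wild-type AML for Hoxb3 (left) and Hoxb4 (right), in the fit of all 12 arrays and in 12 fits that each leave out 1 array, with bars for the SE and filled points for a limma adjusted p below the threshold. Leaving out AML wild-type array 3 gives the highest value for both genes (3.03 and 2.00), and without any other array the Hoxb4 point is open.

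In bcCML no Hoxb gene passed the threshold for the Msi2 comparison with limma, and none of the 4 tested had an unadjusted p under 0.05. Over all genes 0.139% were called, and 900 of 10817 had an unadjusted p under 0.05. The log2 differences were 0.40 for Hoxb3 (95% interval -1.17 to 1.96), 0.12 for Hoxb4 (-0.61 to 0.86), 0.26 for Hoxb5 (-0.43 to 0.96) and 0.31 for Hoxb6 (-0.06 to 0.67). All 4 estimates were positive, as were those of 4968 of the 10817 genes tested, whose median was -0.024. The 3 mutant arrays lay above the 3 wild-type arrays for Hoxb3, as for 5.83% of all genes, and the arrays overlapped for Hoxb4, Hoxb5 and Hoxb6. Same-numbered bcCML arrays deviated together, so the differences were also read within the 3 pairs. On the log2 scale these were 0.63, 0.29 and 0.27 for Hoxb3, -0.15, 0.062 and 0.45 for Hoxb4, 0.91, -0.18 and 0.061 for Hoxb5, and 0.33, 0.018 and 0.58 for Hoxb6. The mutant was thus higher in every pair for Hoxb3 and Hoxb6, as for 15.9% of all genes. With the pairs as a block the limma adjusted p was 0.922 for Hoxb3 and 0.634 for Hoxb6.

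Whether Msi2 loss acted differently in the leukaemias was tested directly. The difference in bcCML minus that in AML was -1.47 ± 0.47 for Hoxb4 (SE; 95% interval -2.50 to -0.43), and it did not pass (limma adjusted p = 0.366). For Hoxb3 it was -1.56 ± 0.99 (limma adjusted p = 0.663). No Hoxb gene was called by limma, Hoxb4 was the 1 member with an unadjusted p under 0.05, and 0% of all genes were called, with 1014 of 10817 at an unadjusted p under 0.05. Without AML wild-type array 3, Hoxb3 passed at -2.63 (limma adjusted p = 0.0334) and Hoxb4 did not. That array was picked out by its Hoxb values, so the fit without it is a description. The dimmer Hoxb3 probe set gave 0.38 ± 0.52 (SE; limma adjusted p = 0.855, every probe set tested).

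The mean of the Msi2 differences in both leukaemias was 0.86 ± 0.23 for Hoxb4 (SE; limma adjusted p = 0.141) and 1.17 ± 0.50 for Hoxb3 (limma adjusted p = 0.336). Neither passed, and 2 of the 4 members had an unadjusted p under 0.05. Of all genes 0.471% were called, and 1477 of 10817 had an unadjusted p under 0.05. Without AML wild-type array 3 both passed, at 1.06 for Hoxb4 (limma adjusted p = 0.0388) and 1.71 for Hoxb3 (limma adjusted p = 0.00734). As above, leaving out that array had to enlarge these values, and the fit is a description. For the dimmer Hoxb3 probe set the mean was 0.04 ± 0.26 (SE; limma adjusted p = 0.964, every probe set tested).

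**Figure D4:**
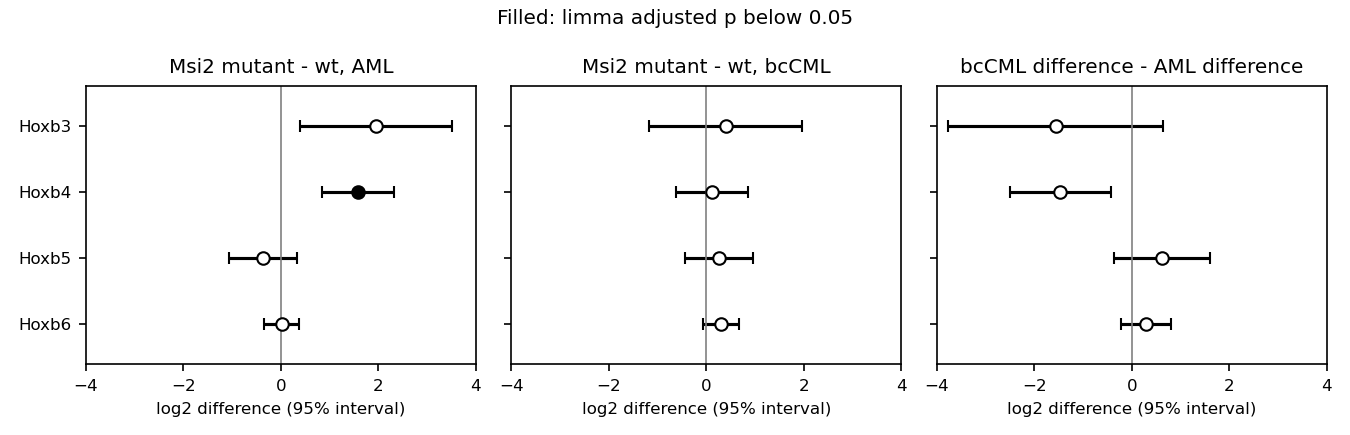
Log2 differences with 95% intervals for the 4 tested Hoxb genes, for Msi2 mutant minus wild-type in AML (left), in bcCML (middle) and for the bcCML difference minus the AML difference (right). The Hoxb4 point in AML, at 1.59, is the filled one that passed the threshold, and the Hoxb5 and Hoxb6 values in AML come from signals below the filter level.

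The other Hox clusters did not all follow the Hoxb pattern between the leukaemias. In the Hoxa cluster 5 of 11 genes were tested, and in wild-type cells 0 were higher and 1, Hoxa10, was lower in bcCML (2091 units in AML and 373 in bcCML; limma adjusted p = 0.000163). Hoxa9, whose human form is part of the NUP98-HOXA9 fusion, measured 4285 ± 562 and 4180 ± 565 units in wild-type AML and bcCML (SD, n = 3). In the Hoxc cluster 4 of 9 genes were tested and 3 were higher in wild-type bcCML. Hoxc4 went from 8.59 to 3022 units and Hoxc5 from 4.51 to 509, both from below the filter, as Hoxb5 and Hoxb6 did. In mutants 1 Hoxa gene was higher and 1 lower, and all 4 tested Hoxc genes were higher, where 2510 of 10817 genes were called higher and 2365 lower. For Msi2 loss, no Hoxa or Hoxc gene was called by limma in AML, where 0 of the 9 tested had an unadjusted p under 0.05, or in bcCML, where 2 had. Over all genes 1.52% were called in AML and 0.139% in bcCML. An unadjusted p under 0.05 was found for 1538 of 10817 genes in AML and 900 in bcCML. No gene of the Hoxd cluster was tested, since none of its 10 probe sets passed. The median log2 difference was 5.22 for the tested Hoxb, -0.23 for the Hoxa and 4.55 for the Hoxc genes, and the Hoxb and Hoxc medians rest in part on genes that had to differ.

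**Figure D5:**
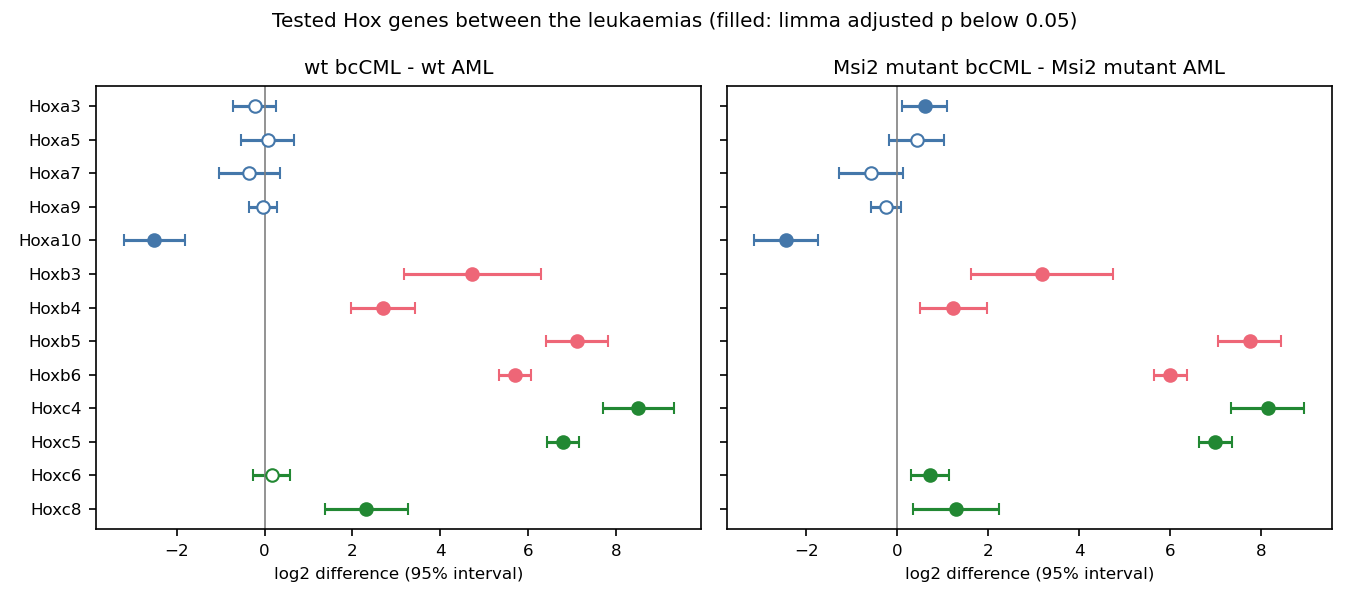
Log2 differences with 95% intervals for the 13 tested genes of the Hoxa, Hoxb and Hoxc clusters, bcCML minus AML, in wild-type (left) and Msi2 mutant cells (right). All 4 Hoxb genes lie to the right of 0 in both panels, Hoxa10 lies to the left, and Hoxb5, Hoxb6, Hoxc5 and, in wild-type cells, Hoxc4 rest on AML values below the filter, so their differences are not sizes.

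Among the protein partners of Hoxb factors, Pbx3 fell in mutant AML, from 2945 to 693 units (log2 difference -2.08 ± 0.25, SE; limma adjusted p = 0.00514), while Hoxb4 rose. Pbx3 was the 1 of 8 tested cofactors called there, where 1.52% of all genes were called. Meis1 was at 966 ± 66.3 units in wild-type AML and 821 ± 101 in mutant AML (SD, n = 3) and was lower in wild-type bcCML than in wild-type AML, at 392 units (log2 difference -1.30 ± 0.18, SE; limma adjusted p = 0.000346). Of 31 tested regulators of Hox genes, such as the MLL gene Kmt2a and Polycomb genes, none was called for Msi2 loss in AML or bcCML by limma, with 2 and 3 at an unadjusted p under 0.05. Over all 10817 genes, 1538 in AML and 900 in bcCML had such a p. Between wild-type leukaemias 4 were higher and 5 lower in bcCML, where 36.9% of all genes were called, 17.7% higher and 19.3% lower. The regulator with the smallest p, Mllt3, whose human form is the AF9 part of MLL-AF9, was higher in bcCML (17.9 units in AML and 1586 in bcCML; limma adjusted p = 1.66e-06). Mllt3 was above the filter on only 1 of the 3 wild-type AML arrays. The Polycomb gene Cbx8 was lower, from 83.5 units to below the filter on every wild-type bcCML array. Cbx8 passed the filter through AML, so its call (limma adjusted p = 2.93e-05) is given as a description. Usf1, which binds E-boxes, was also lower in bcCML (163 and 87.1 units; limma adjusted p = 0.00103).

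The cluster shares its chromosome with the trapped gene, with 155 genes of the RefSeq table between them, 41 of which were tested. Of the 10 nearest tested genes on each side, none was called by limma for Msi2 loss in AML, in bcCML or in the mean of both. Over all genes tested 1.52% were called in AML, 0.139% in bcCML and 0.471% in the mean. At such shares few or no calls would fall among 20 genes. The lowest adjusted p for Msi2 loss was that of Zfp652, on the Msi2 side, in the mean (-1.10 ± 0.21 SE, limma adjusted p = 0.0515). Median log2 differences of the 20 were -0.20 in AML and -0.078 in bcCML, against -0.046 and -0.024 over all genes. Between wild-type leukaemias 1 of the 20, the signalling adaptor gene Skap1, was higher in bcCML by 2.22 on the log2 scale. Snx11 (-1.83), Tbkbp1 (-1.58), Spop (-0.67) and Nfe2l1 (-0.42) were lower, and the median log2 difference of the 20 was -0.24. In mutants Skap1 (2.38) and Cbx1 (0.56) were higher and 6 genes were lower, the same 4 with Gngt2 (-4.30) and Cdk5rap3 (-0.65). Over all genes, 17.7% were called higher and 19.3% lower in wild-type bcCML. In mutant bcCML 2510 of 10817 were called higher and 2365 lower.

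Genes of like pattern were sought for the 3 tested members with the highest mean, by the root mean square difference of log2 values over 12 arrays after each gene was centred on its own mean. Closest to Hoxb3 were Ccnd2 (0.72), which encodes cyclin D2, Alox5 (0.77) and Car3 (0.80). Closest to Hoxb4 were Nol4l (0.46), Phlda1 (0.46) and Zmynd11 (0.51). Zmynd11 had means of 429 (wild-type) and 964 units (mutant) in AML and of 3779 and 3893 in bcCML. Closest to Hoxb5 were Arhgap6 (0.36), Cracd (0.36) and Ptger3 (0.38). Arhgap6 had means of 5.26 units in both AML genotypes and of 576 and 804 in wild-type and mutant bcCML. The distance counts the size of a change as well as its shape, so genes of unlike range lie apart even with the same order of groups. The means of Hoxb3 and Hoxb4 had the same order of groups. By this distance the members were not each other's nearest profiles. Among the other genes tested, the nearest Hoxb gene ranked 40 for Hoxb3 (Hoxb4), 54 for Hoxb5 (Hoxb6) and 2974 for Hoxb4 (Hoxb3). All of these profiles share the 12 arrays and the contrast between the leukaemias, so the distances are a description.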

How the data were processed

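The authors deposited 1 linear intensity value for each probe set and array. GCRMA is the tool that the submitters' processing notes name, and its version and settings are not given in the sources used here. It subtracts background by probe sequence and normalises between arrays, and many dim values sit near the lowest one, 4.49, so low differences are compressed. Of 45037 probe sets, 34945 had 1 symbol, 932 had several and 9160 had no entry in the annotation. Total RNA was labelled as biotinylated cRNA, per the labels.

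Log2 values of 10817 genes (log2 above 4 on at least 3 arrays; brightest probe set) entered a limma fit (version 3.58.1, R 4.3.3) of 12 arrays with 8 residual and 2.191 prior degrees of freedom. Tests are two-sided. A fold from a group with every array under 16 units is a bound against that level. The fit was tested on simulated data of 10817 genes, a small part of which was changed. Of the genes changed by a log2 value of 2, it recovered 73% in AML, 80% in bcCML and 59% for the difference between them. At a log2 value of 1 it recovered 44%, 35% and 18%. With 3 arrays in each group, their number limits the precision.

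Members, lists and tests were chosen with earlier results of these data known. All members are named. Of other lists, up to 4 members with the smallest p were named, flanking genes where called, and the 3 nearest profiles of 3 members. Hoxb5os, Kit and the shared Hoxb8 and Hoxb7 probe set were chosen after their values were seen. Gene order came from RefSeq, GRCm38.p6. Replicates are biological by title, and whether animals were pooled is not stated. Same-numbered bcCML arrays deviated together (correlations 0.396, 0.364 and 0.278) and so can be read as pairs, from the data and not a stated design. AML arrays did not (-0.055, -0.121 and -0.030). All tests given are unpaired unless a block is named. Alternatives were other filters, a pseudocount, probe set choices, scalings, smaller fits, a variance trend, a replicate block and leaving out each array.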

Additional observations from a re-analysis of the deposited data

How the results depend on the processing

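Counts of Hoxb genes called by limma were recomputed under 10 other settings and 12 fits without 1 array. For wild-type and mutant bcCML against AML the count was 4 in all of these, and for Msi2 loss in bcCML it was 0. Within the count of 4, Hoxb5 and Hoxb6 passed the filter only through bcCML and had to differ. In the main fit 17.7% of all genes were called higher in wild-type and 23.2% in mutant bcCML. For Msi2 loss in AML the count of 1 became 0 with no filter (adjusted p of Hoxb4 0.0983), with every probe set tested (0.0534), with only the arrays compared (0.272) and with the replicate block (0.132), and ran from 0 to 2 on leaving out 1 array. For the mean of both leukaemias it ran from 0 to 2 and for the difference between them from 0 to 1 on leaving out 1 array. The replicate block gave 0 in AML, 0 in bcCML, 0 for both of these and 4 between the leukaemias, and changed no other call. Signs turned for differences near 0: Hoxb5 in the mean of both leukaemias was 0.059 with a pseudocount of 16 and ran from -0.15 to 0.15 without 1 array, Hoxb5 in AML ran from -0.57 to 0.032 without 1 array, and Hoxb6 in AML was -0.013 with median scaling. With a pseudocount of 16, Hoxb5 and Hoxb6 differed between wild-type leukaemias by 5.64 and 3.63 and Hoxb3 by 4.15, and with the mean of its probe sets Hoxb3 differed by 3.45 there and by 0.90 for Msi2 loss in AML. Signal near the floor limits Hoxb1, Hoxb2, Hoxb7 and Hoxb9 in all groups and Hoxb5 and Hoxb6 in AML.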

Other observations

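A probe set that the annotation pairs with both Hoxb8 and Hoxb7 was outside the members, since its signal cannot be assigned to either gene. It lay at the floor on all 6 AML arrays, with 4.52 units as the highest value. It measured 128, 216 and 230 units in wild-type and 209, 194 and 323 in mutant bcCML. The Hoxb7 probe set lay at the floor on the same bcCML arrays, at no more than 4.52 units.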
